A study of Mus musculus with 4 samples.

Results

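The amino acid transporter genes of cultured mouse melanocytes were taken as all genes named Slc1a, Slc3a, Slc6a, Slc7a, Slc36a, Slc38a or Slc43a followed by a number. Of 18193 genes with a probe set of their own on the array, 58 met this rule. RNA of 4 immortalized C57BL/6J melanocyte lines, each derived from the skin of a pup aged 3 days and grown to 80% confluency with 200 nM of the phorbol ester TPA, was hybridised to Affymetrix arrays, 1 array per line. Line 10d carries bcat*, a stable and transcriptionally active β-catenin expressed in the melanocyte lineage, and line 9v is WT, in both the sample labels and the article. Line 13d is bcat* in the labels and WT in the article, whereas line 14d is WT in the labels and bcat* in the article, so that their genotype is not settled. By the labels, 10d and 9v are male and 13d and 14d female, while the article describes male mice (Xist had an intensity of 2124 in 13d and 1768 in 14d, and of 4 in both 10d and 9v). Fibroblasts had been removed with the antibiotic G418 while the lines were established. Each line is 1 derivation measured once, so that line and genotype cannot be told apart.

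Amino acid transporters are membrane carriers that exchange or import amino acids across the plasma membrane or move them out of lysosomes and vesicles. In the Slc7a family several light chains work only as partners of a heavy chain of the Slc3a family. In melanocytes, tyrosine and its precursor phenylalanine feed the synthesis of melanin, and cystine is needed for the yellow-red form of the pigment. When amino acids run short, the kinase Gcn2 (gene Eif2ak4) raises the translation of the transcription factor Atf4, which is known to switch on transporter, amino acid synthesis and aminoacyl-tRNA synthetase genes through a short response element.

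The lines carried the markers of melanocytes. Of 12 melanocyte markers, 11 were at or above an intensity of 32 in every line, the level taken here as detected, with summed intensities from 284881 to 313550. Ednrb was at 29 in each line. Keratinocyte, fibroblast and endothelial markers were mostly under this level, with summed intensities of 145 to 307, 95 to 274 and 35 to 45, and Krt5, Krt14, Col3a1, Dcn and Pecam1 were at 11 or less in all lines. The detected ones were a keratin gene, Krt10, and the fibroblast markers Col1a2 and Postn. Krt10 was at 268 in 10d, 156 in 13d, 106 in 14d and 148 in 9v, and made up most of the keratinocyte sum. Col1a2, a fibroblast collagen gene, was at 80 in 10d, 24 in 13d, 17 in 14d and 175 in 9v. Postn was at 34 in 10d, 61 in 13d, 20 in 14d and 38 in 9v. Among leukocyte markers, 2 of 7 were detected in each line. Lyz2 was at 9580 in line 14d and at 204 to 334 in the others, while Ptprc, Cd68, Aif1 and Cd14 were at 9 or less. Among 6 measured Schwann and glial markers, 3 were detected in a line and did not move together. S100b was at 308 in 10d, 3836 in 13d, 5 in 14d and 58 in 9v, Cdh19 at 8492 in 10d, 7637 in 13d, 5248 in 14d and 4906 in 9v, and Foxd3 at 67 in 10d, 23 in 13d, 23 in 14d and 54 in 9v. The part of these genes in the results below was not tested. In RNA of whole cultures, fewer expressing cells and less RNA per cell cannot be told apart.

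Of the 58 members, 21 were detected in at least 1 line and 18 in all 4. Expression at this level was thus restricted to 2 of 7 Slc1a genes, 1 of 2 Slc3a genes, 5 of 18 Slc6a genes, 4 of 15 Slc7a genes, 2 of 4 Slc36a genes, 5 of 9 Slc38a genes and 2 of 3 Slc43a genes. The remaining 37 lay at 24 or less in all lines. Among them were the acidic amino acid transporters Slc1a1, Slc1a2, Slc1a3, Slc1a6 and Slc1a7, the monoamine transporters Slc6a2, Slc6a3 and Slc6a4, the neuronal glycine and proline transporters Slc6a5 and Slc6a7, the GABA and betaine transporters Slc6a11, Slc6a12 and Slc6a13, and Slc3a1, the heavy chain of the kidney cystine transporter. The others were Slc36a2, Slc36a3, Slc38a3, Slc38a4, Slc38a5, Slc38a6, Slc43a1, Slc6a14, Slc6a16, Slc6a18, Slc6a19, Slc6a21, Slc7a2, Slc7a3, Slc7a4, Slc7a7, Slc7a9, Slc7a10, Slc7a11, Slc7a12, Slc7a13, Slc7a14 and Slc7a15. Slc7a11, the cystine and glutamate exchanger whose loss gives the subtle gray coat colour in mice, had intensities of 8 in 10d and 7 in each of 13d, 14d and 9v, and its second probe set was at 5 in every line.

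**Figure D1:**
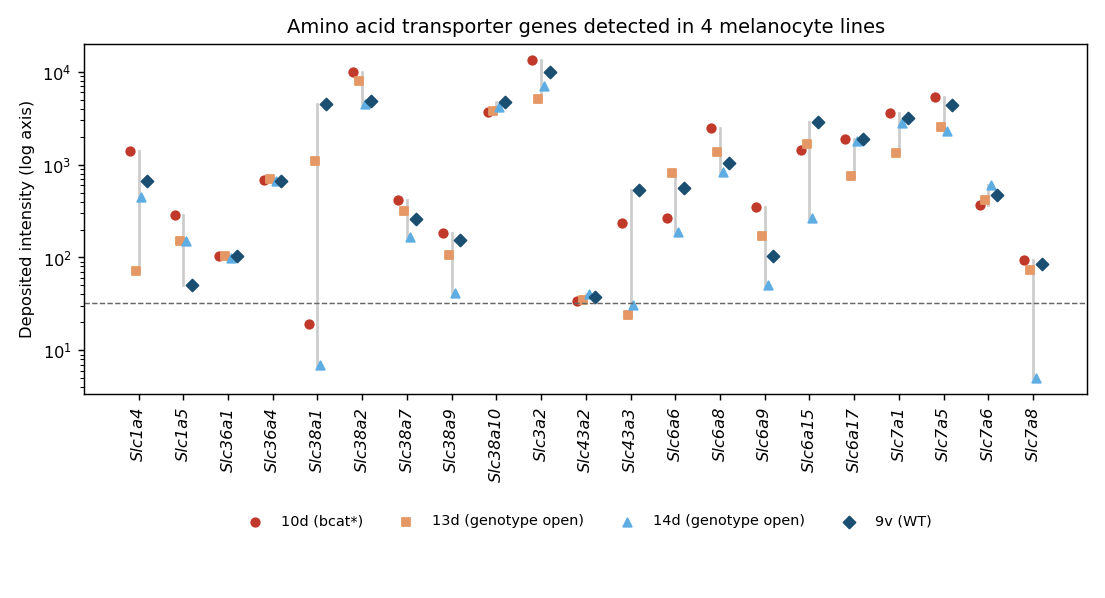
Deposited intensity (log axis) of the 21 detected amino acid transporter genes in lines 10d, 13d, 14d and 9v, 1 array each and therefore without error bars. The dashed line is the detection level of 32 and grey bars join the lowest and highest line. Slc38a1 spans from 7 in 14d to 4478 in 9v, while Slc36a1 and Slc36a4 lie at nearly the same level in all lines.

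Between the line with the highest and the line with the lowest value, 16 of the 21 detected members differed by at least 2-fold, values under 32 being raised to 32, against 40.1% of all 9415 detected genes. The other 5, namely Slc36a1, Slc36a4, Slc38a10, Slc43a2 and Slc7a6, differed by 1.04- to 1.64-fold. Of the 16 variable members, 11 were highest in 10d and 0 in 14d, whereas 9 were lowest in 14d and 0 in 10d, where ties were not counted. Among the 3780 variable genes of the whole array, 29.6% were highest in 10d and 26.9% in 14d, while 27.2% were lowest in 10d and 1211 genes in 14d. Spans of at least 8-fold were reached by Slc38a1, Slc1a4, Slc43a3 and Slc6a15, against 4.56% of all detected genes, and of at least 16-fold by all of these but Slc6a15, against 1.94%.

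Slc38a1, a sodium-coupled carrier of glutamine and other small neutral amino acids, was present in 13d and 9v and under the detection level in 10d and 14d. Its intensity was 19 in 10d, 1097 in 13d, 7 in 14d and 4478 in 9v. It was thus at least 139.9-fold lower in 10d than in 9v and at least 34.3-fold higher in 13d than in 14d. A second probe set showed the same split, at 9 in 10d, 363 in 13d, 9 in 14d and 1360 in 9v. Taken alone, this probe set gave log2 differences of at least -5.41 for 10d over 9v and at least 3.50 for 13d over 14d. The lines with and without Slc38a1 RNA are those that the article, but not the labels, groups by genotype.

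In the RefSeq gene table of the GRCm38.p6 assembly, Slc38a1, Slc38a2 and Slc38a4 are consecutive protein-coding genes of chromosome 15. Slc38a2, a carrier of the same amino acids that is known to be induced by amino acid shortage, was detected in all lines at 9902 in 10d, 8011 in 13d, 4445 in 14d and 4827 in 9v. It was higher in 10d than in 9v by 1.04 on the log2 scale and in 13d than in 14d by 0.85, so that the lines without Slc38a1 RNA did not share a high or a low Slc38a2 value. Its second detected probe set gave 1.07 for 10d over 9v and 0.37 for 13d over 14d. Averaged over all 3 probe sets, of which the third was at 5 in every line, the difference of 10d over 9v was 0.70 and no longer reached 2-fold. Slc38a4 was at 9 or less in every line.

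The remaining detected Slc38a genes act within the cell or are less well characterised. Slc38a7, which exports glutamine and asparagine from lysosomes, was at 414 in 10d, 313 in 13d, 168 in 14d and 260 in 9v. Slc38a9, a lysosomal transceptor that reports arginine to mTORC1, was at 185 in 10d, 106 in 13d, 41 in 14d and 154 in 9v, which gives a log2 difference of 1.37 for 13d over 14d and 0.26 for 10d over 9v. With a detection level of 64 the difference of 13d over 14d was 0.73. Line 14d was the lowest for both genes. Slc38a10 ranged from 3674 in 10d to 4707 in 9v, and its 5 detected probe sets were all lower in 10d than in 9v. Of the detected Slc36a genes, Slc36a1 was at 105 in 10d, 104 in 13d, 98 in 14d and 105 in 9v, and Slc36a4 between 668 and 697 in all lines.

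Both detected Slc1a genes, exchangers of neutral amino acids, were at least 2-fold higher in 10d than in 9v. Slc1a4, which carries alanine, serine, cysteine and threonine, had intensities of 1387 in 10d, 72 in 13d, 452 in 14d and 672 in 9v. The log2 difference was 1.05 for 10d over 9v and -2.65 for 13d over 14d, and all 3 probe sets were higher in 10d than in 9v, by 1.05, 1.98 and 3.10. Slc1a5, which exchanges glutamine, was at 284 in 10d, 149 in 13d, 149 in 14d and 51 in 9v, a log2 difference of 2.48 for 10d over 9v and 0 for 13d over 14d. Its second probe set was at 4 in every line, and the mean of both gave a log2 difference of 0.07 with 10d over 9v.

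Slc1a4 is a known target of Atf4, and the letters of its promoter are therefore shown beside those of other genes of the Atf4 response, whose values are given further on. The response element bound by Atf4 with C/EBP factors was searched as TGATGNAA on both strands, in RefSeq windows (build GRCm38.p6) from 250 bases before to 50 bases after a transcription start. Of the 21 detected members, 14 had such a window, and Slc1a5, Slc38a1, Slc43a3, Slc6a15, Slc6a6, Slc6a8 and Slc7a5 had none. A match was found for 1 of these 14 members, Slc1a4, and for 7 of 19 genes of the Atf4 list. Counted by windows, this was 1 of 20 (5.0%) and 7 of 22 (31.8%), against 3.97% of all 32851 windows. In Slc1a4 the match runs from base -4 to base 4 around the start. Besides Asns, Atf3, Nupr1, Chac1 and Vldlr, the Atf4 list genes with a match were Herpud1, with the same letters as Slc1a4, and Trib3, whose match lies after the start. These were left out of the stretches shown, a choice made after the matches were seen. The stretches below are read 5′ to 3′ along the gene, with the match in capitals, which is the element on the opposite strand in all but Asns.
Slc1a4 (chr11:20332704-20332737, minus strand): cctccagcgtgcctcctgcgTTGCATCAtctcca
Asns (chr6:7693205-7693252, minus strand): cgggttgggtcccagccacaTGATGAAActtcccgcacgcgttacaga
Atf3 (chr1:191183416-191183463, minus strand): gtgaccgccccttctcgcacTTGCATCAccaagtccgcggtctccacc
Nupr1 (chr7:126625553-126625600, minus strand): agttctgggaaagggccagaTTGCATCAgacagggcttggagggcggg
Chac1 (chr2:119351029-119351076, plus strand): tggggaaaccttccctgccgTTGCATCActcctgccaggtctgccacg
Vldlr (chr19:27216800-27216847, plus strand): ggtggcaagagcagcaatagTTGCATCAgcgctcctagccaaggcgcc
Slc1a4 shares the letters TTGCATCA with Atf3, Nupr1, Chac1, Vldlr and Herpud1, while the intensities of these genes did not all follow 1 order over the lines, Chac1 being lower in 10d than in 9v. Letters of the Tcf/Lef factors that β-catenin binds (CTTTGAA or CTTTGAT or CTTTGTA or CTTTGTT, both strands, of which CTTTGAT can share letters with TGATGNAA) were found for 5 of the 14 members (Slc38a10, Slc38a9, Slc3a2, Slc6a9 and Slc7a1), which is 5 of their 20 windows (25.0%) against 16.9% of all windows, and for 0 of the 19 genes of the Atf4 list, and none of these genes held both motifs.

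Of the Slc6a family, those detected carry taurine, creatine, glycine and neutral amino acids. Slc6a9, the glycine transporter of non-neuronal cells, was the member that was at least 2-fold higher in both 10d over 9v and 13d over 14d, with intensities of 347 in 10d, 172 in 13d, 51 in 14d and 105 in 9v and log2 differences of 1.72 and 1.75. These became 0.92 and 0.51 with the mean over its probe sets, of which the second lay at 13 or less. Slc6a8, the creatine transporter, was at 2468 in 10d, 1365 in 13d, 842 in 14d and 1034 in 9v. Its log2 difference was 1.26 for 10d over 9v, although 0.37 by its second probe set.

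Slc6a6 and Slc6a15 were lower in 10d than in 9v and higher in 13d than in 14d, each by at least 2-fold. Slc6a6, the taurine transporter, was at 269 in 10d, 805 in 13d, 187 in 14d and 563 in 9v, and its second detected probe set gave differences in the same directions of -1.20 and 2.42, against -1.07 and 2.11 by the first. Slc6a15, a carrier of branched-chain amino acids and proline, was at 1420 in 10d, 1668 in 13d, 264 in 14d and 2862 in 9v, with log2 differences of -1.01 and 2.66. When arrays were centred on their medians, which moved the median of all detected genes by 0.19 for 10d over 9v, the differences of 10d over 9v were -0.87 for Slc6a6 and -0.82 for Slc6a15 and no longer reached 2-fold. With the mean over all 4 probe sets of Slc6a6, 2 of them at 10 or less, its differences were -0.57 and 0.89. Slc6a17, which loads neutral amino acids into vesicles, was at 1888 in 10d, 763 in 13d, 1779 in 14d and 1906 in 9v, so that 13d was the line that differed by this probe set. A second probe set had the same pattern, at 807 in 10d, 251 in 13d, 708 in 14d and 876 in 9v. By the third, 13d and 14d were both low, at 89 in 10d, 49 in 13d, 52 in 14d and 97 in 9v.

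The CD98 heterodimer did not differ by 2-fold between 10d and 9v. Slc3a2, its heavy chain, was at 13398 in 10d, 5059 in 13d, 7014 in 14d and 9905 in 9v. Slc7a5, its best known light chain and a carrier of large neutral amino acids such as tyrosine and leucine, was at 5291 in 10d, 2547 in 13d, 2285 in 14d and 4371 in 9v. Log2 differences for 10d over 9v were 0.44 and 0.28. For both genes the male lines 10d and 9v lay above the female lines 13d and 14d. The same order held for Slc1a4, Slc36a1, Slc38a9, Slc43a3, Slc6a17, Slc7a1 and Slc7a8, whatever the size of the gap. For Slc36a1 the gap was slight, at 105 in 10d and 9v against 104 in 13d and 98 in 14d. The share over all genes was not counted, so that the number of members with this order cannot be judged. Among the other light chains, Slc7a6 was at 368 in 10d, 421 in 13d, 604 in 14d and 470 in 9v. Slc7a8 was at 93 in 10d, 74 in 13d and 86 in 9v but at 5 in 14d, at least 2.31-fold higher in 13d than in 14d, and a detection level of 64 reduced this log2 difference to 0.21. Slc7a1, which imports arginine and lysine without a heavy chain, was at 3558 in 10d, 1348 in 13d, 2831 in 14d and 3197 in 9v, and both of its detected probe sets were lowest in 13d.

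Slc43a3, a carrier of purine nucleobases despite its family name, was at 233 in 10d, 24 in 13d, 31 in 14d and 539 in 9v. It was 2.31-fold lower in 10d than in 9v and under the detection level in both female lines. Slc43a2, a carrier of large neutral amino acids, lay just above the detection level at 34 to 40.

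In the comparison of 10d with 9v, the pair whose genotype is not in dispute, 5 of 21 detected members were at least 2-fold higher (Slc1a5, Slc6a9, Slc6a8, Slc1a4 and Slc38a2), against 7.85% of all detected genes, and 4 were at least 2-fold lower (Slc38a1, Slc43a3, Slc6a6 and Slc6a15), against 10.0%. The median log2 difference was 0.11 for the members and 0 for all genes. Of 20 members detected in 13d or 14d, 6 were at least 2-fold higher in 13d than in 14d (Slc38a1, Slc6a15, Slc6a6, Slc6a9, Slc38a9 and Slc7a8), against 11.0% of all detected genes, and 3 were lower (Slc1a4, Slc6a17 and Slc7a1), against 8.73%. In either direction, 9 of 21 members differed by at least 2-fold between 10d and 9v, against 17.9%, and 9 of 20 between 13d and 14d, against 19.7%. These pairs share no array. At least 2-fold in both pairs, 1 of 20 members went the same way (Slc6a9), beside 4.92% of 8929 genes, and 4 went opposite ways (Slc1a4, Slc38a1, Slc6a6 and Slc6a15), beside 1.98%. With 1 array per line none of these differences has a replicate check, and Slc38a1, Slc43a3 and Slc7a8 counted as detected only through the lines in which they were high.

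**Figure D2:**
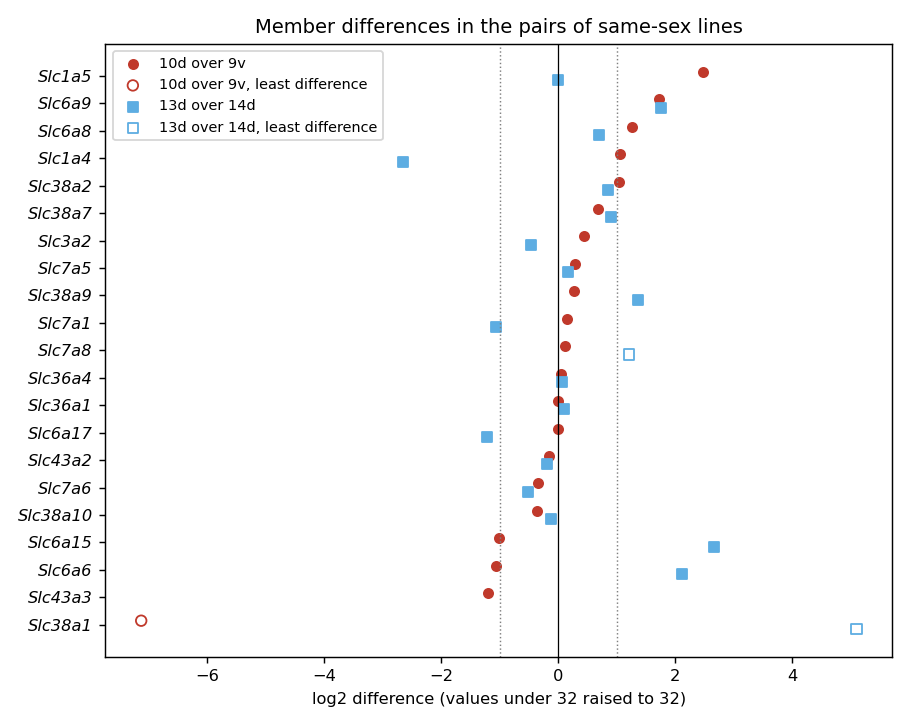
Log2 difference of the 21 detected members for line 10d over 9v (circles) and 13d over 14d (squares), with values under 32 raised to 32. Open symbols are least differences where 1 line lay under 32, dotted lines mark 2-fold, and Slc43a3 has no 13d over 14d value because both lines lay under 32. Slc38a1, Slc1a4, Slc6a6 and Slc6a15 lie on opposite sides in the 2 pairs, and Slc6a9 lies at 1.72 and 1.75.

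Across the 6 pairs of lines, which share arrays, 10d over 14d was the pair with 10 of 20 members at least 2-fold higher and 0 lower, against 12.4% and 11.4% of all detected genes. For 10d over 13d the counts were 7 higher and 2 lower of 21, against 6.28% and 8.55%. Lines 13d and 14d each had 1 member higher than in 9v, against 6.04% and 5.93%, and had 5 and 7 members lower, against 6.97% and 9.49%.

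**Figure D3:**
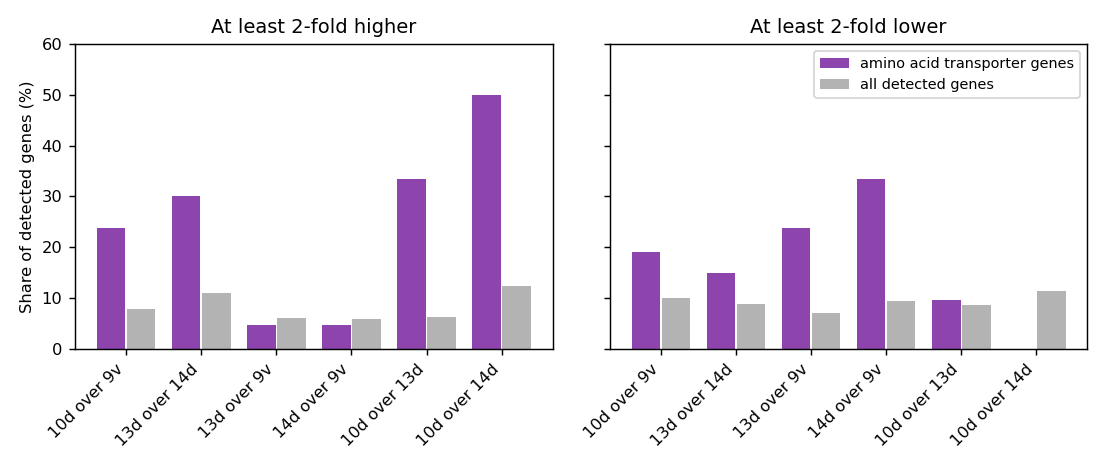
Share (%) of detected amino acid transporter genes (purple) and of all detected genes (grey) that were at least 2-fold higher (left) or lower (right) in each of the 6 pairs of lines. For 10d over 14d, 10 of 20 members were higher and 0 lower, beside 12.4% and 11.4% of all genes.

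When the lines were grouped by the labels (10d and 13d as bcat*, 14d and 9v as WT), the values of bcat* lines lay wholly above those of WT lines for 5 of 21 members (Slc36a4, Slc38a2, Slc38a7, Slc6a8 and Slc6a9), against 18.4% of all detected genes, and wholly below for 3 (Slc38a10, Slc43a2 and Slc7a6), against 19.5%. By their second detected probe sets the groups overlapped for Slc6a8, at 1361 in 10d, 945 in 13d, 1090 in 14d and 1051 in 9v, and for Slc7a6, at 284 in 10d, 347 in 13d, 301 in 14d and 284 in 9v. A second probe set of Slc43a2 reached 32 in 14d alone. Grouped by the article (10d and 14d as bcat*, 13d and 9v as WT), they lay above for 0 members, against 16.1%, and below for 3 (Slc38a1, Slc6a6 and Slc6a15), against 14.1%. No member passed an adjusted p of 0.05 in limma under either grouping, nor did any other gene (0.0% of 9415 genes). At an unadjusted p under 0.05 there were 2 members by the labels (Slc38a2 and Slc6a9), beside 8.01% of genes, and 2 by the article (Slc38a1 and Slc6a6), beside 3.73%. In these fits the log2 difference of bcat* over WT for Slc38a1 was -1.01 ± 3.15 by the labels (SE, 2 lines each, limma adjusted p = 0.935). This value depends on the detection level, since 10d and 14d, 1 line of each group, were raised to 32. By the article the difference was at least -6.11 (limma adjusted p = 0.959). Both bcat* lines then lay under 32 and were set to the same value, so that no SE is given. For Slc38a2 the difference was 0.94 ± 0.24 by the labels (limma adjusted p = 0.53) and 0.09 ± 0.54 by the article (limma adjusted p = 0.993).

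The Atf4 list held Atf4 itself and the kinase genes Eif2ak4 and Eif2ak3, beside genes known to respond to amino acid shortage through Atf4. Of 20 genes of this list detected in 10d or 9v, 10 were at least 2-fold higher in 10d and 1 was lower. The shares of all detected genes were 7.85% and 10.0%, and the median log2 difference of the list was 1.01. Between the female lines the list leaned the other way, with 0 higher and 8 of 19 lower in 13d than in 14d, against 11.0% and 8.73%, and a median of -0.81. Vldlr, a lipoprotein receptor, was at 965 in 10d, 158 in 13d, 142 in 14d and 45 in 9v. Atf3, a transcription factor of the stress response, was at 502 in 10d, 30 in 13d, 38 in 14d and 58 in 9v. Nupr1, a stress-induced nuclear protein gene, was at 4629 in 10d, 45 in 13d, 50 in 14d and 952 in 9v. Ddit3, which encodes Chop, was at 10514 in 10d, 422 in 13d, 2069 in 14d and 2713 in 9v, and Trib3, a pseudokinase gene, at 6406 in 10d, 29 in 13d, 327 in 14d and 1725 in 9v. Chac1, which degrades glutathione, was the member lower in 10d, at 12 in 10d, 5 in 13d, 143 in 14d and 194 in 9v. Of the 18 genes of the list that varied by at least 2-fold, 15 were highest in 10d, against 29.6% of all variable genes, and 13 lowest in 13d, against 15.5%. Among the 16 variable transporters, Slc1a4, Slc3a2 and Slc7a1 were likewise highest in 10d and lowest in 13d. Slc38a2, Slc38a7, Slc38a9, Slc6a8, Slc6a9, Slc7a5 and Slc7a8 were also highest in 10d but lowest in 14d, and Slc1a5 was lowest in 9v. In all, 4 of the 16 were lowest in 13d and 9 in 14d, against 586 and 1211 of the 3780 variable genes.

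Of the aminoacyl-tRNA synthetase and amino acid synthesis genes that varied by at least 2-fold, 11 of 13 and 8 of 9 were also highest in 10d, against 29.6% of all variable genes. For the counts of 10d over 9v that follow, the shares of all detected genes were 7.85% higher and 10.0% lower, and for 13d over 14d 11.0% and 8.73%. Of 19 synthetase genes, 5 were at least 2-fold higher and 0 lower in 10d than in 9v (median 0.72), among them Wars, Yars, Tars and Lars with log2 differences of 1.57, 1.54, 1.52 and 1.35. Between 13d and 14d, 0 were higher and 1 lower (median 0.04). Of 13 detected synthesis genes, 5 were higher and 0 lower in 10d than in 9v (median 0.82), while between 13d and 14d 2 of 14 were higher and 3 lower (median -0.12). Those higher in 10d than in 9v were Psph, Psat1, Shmt2 and Shmt1, enzymes of serine and glycine synthesis, and Prodh, which oxidises proline. Psph was at 7656 in 10d, 1062 in 13d, 2150 in 14d and 1751 in 9v, and Psat1 at 10142 in 10d, 3500 in 13d, 4131 in 14d and 4397 in 9v. Genes of amino acid sensing by mTORC1 differed little between 10d and 9v, with 1 of 29 higher (Mlst8, log2 difference 1.30), 1 lower (Depdc5, -1.12) and a median of -0.03. Between 13d and 14d, 0 were higher and 2 lower (Castor1, -2.88, and Sesn3, -1.05), with a median of -0.02. Among the 4 lines, 7 of the 29 varied by at least 2-fold, against 40.1% of all detected genes. Of 11 other amino acid carriers, 2 were higher in 10d than in 9v (Slc25a38 and Slc25a44) and 1 was lower. The lower 1 was the mitochondrial aspartate and glutamate carrier Slc25a13, at 11 in 10d, 588 in 13d, 1495 in 14d and 245 in 9v. Eif2ak4 and Atf4, given for their place in the pathway and chosen after their values were seen, were at 144 in 10d, 137 in 13d, 167 in 14d and 274 in 9v (Eif2ak4) and at 8633 in 10d, 2549 in 13d, 5386 in 14d and 5452 in 9v (Atf4).

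**Figure D4:**
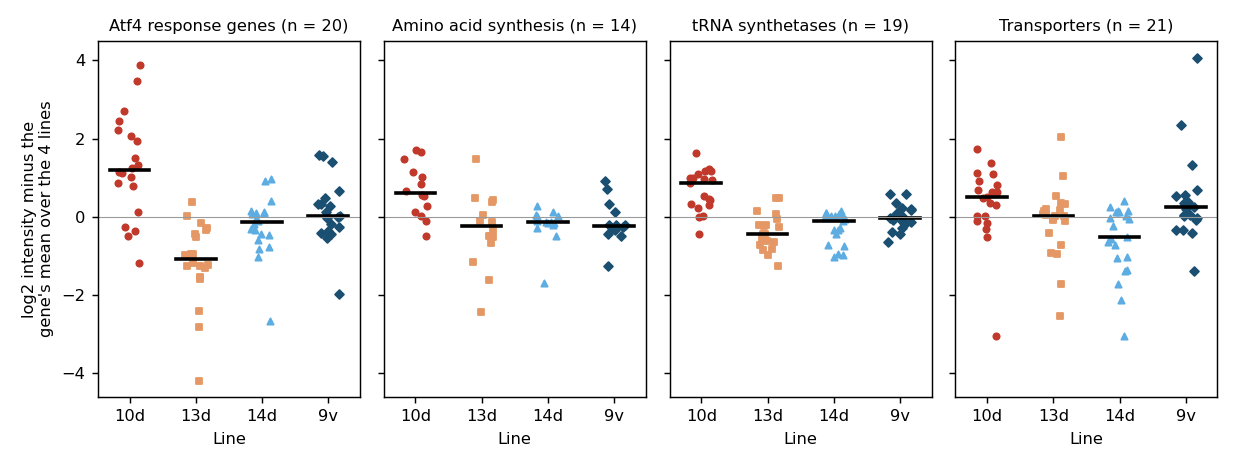
Log2 intensity minus the gene's mean over the 4 lines, for detected genes of 4 sets. These are the Atf4 list (headed Atf4 response genes, with Atf4, Eif2ak4 and Eif2ak3 among them), amino acid synthesis enzymes, aminoacyl-tRNA synthetases and amino acid transporters. Each point is a gene, black bars are medians, and values under 32 were raised to 32. The median of the Atf4 list is 1.19 in 10d, -1.08 in 13d, -0.14 in 14d and 0.02 in 9v, and that of the transporters is 0.50 in 10d, 0.01 in 13d, -0.53 in 14d and 0.26 in 9v.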

How the data were processed

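Total RNA of 4 lines was measured, 1 array per line. The authors deposited 1 intensity per probe set, which the submitters' processing notes credit to GCRMA without naming a version. Deposited intensities were whole numbers from 2 to 84904 with medians of 7 to 8, read from the values as a linear scale. Array number limits the precision. Of 45037 probe sets, 34945 had 1 gene in the platform annotation, 932 several and 9160 were not listed; all 58 member symbols matched RefSeq by Entrez ID, and 118 probe sets measured them (28 members had 1). Each gene was read from 1 probe set, that of highest mean log2 intensity across lines. Intensities under 32 were raised to 32, and 2-fold was the threshold. Genotype groups of 2 lines were fitted with limma over 9415 detected genes with Benjamini-Hochberg adjustment. Every member detected in a line was named, and of each other list up to 4 genes with the largest difference of 10d over 9v and those past 2-fold in both pairs. The members and lists were chosen with earlier results of these data known. Alternatives were other probe set choices, normalizations, detection levels, fold thresholds, sex as a term and leaving out lines. Counting and limma were tested on simulated data. Slc38a8 and Slc38a11 were not analysed here. Python 3.11.15, NumPy 2.4.6, pandas 2.3.3, matplotlib 3.10.9, R 4.3.3 and limma 3.58.1 were used.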

Additional observations from a re-analysis of the deposited data

Results flagged for a closer look

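By the labels, 10d over 9v and 13d over 14d are the same contrast, bcat* over WT, in male and in female lines. Of 20 members, 4 differed by at least 2-fold in opposite directions in these pairs, beside 1.98% of 8929 genes. The difference between the pairs was not tested. The log2 difference was -7.13 for 10d over 9v and 5.10 for 13d over 14d in Slc38a1, both least differences. In Slc1a4 it was 1.05 and -2.65, in Slc6a6 -1.07 and 2.11, and in Slc6a15 -1.01 and 2.66. By the article, the genotypes of 13d and 14d are exchanged. Slc38a1, Slc6a6 and Slc6a15 would then be lower in bcat* lines in both pairs, and Slc1a4 higher in both. For Slc1a4 the groups of 2 lines still overlapped, since 14d (452) lay below 9v (672).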

How the results depend on the processing

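Lines could be paired by labelled sex only, since the labels give no replicate numbers, and with sex as a term 0 members and 0 genes passed in limma under either grouping (708 genes by the labels and 220 by the article at an unadjusted p under 0.05). The mean of all probe sets takes in undetected ones, and means under 32 were raised to 32. With it, 1 member was at least 2-fold higher in 10d than in 9v, 3 were higher and 1 lower in 13d than in 14d, and 10 differed among the 4 lines. At 3-fold, 2 were higher and 1 lower in 10d than in 9v, 1 was lower in 13d than in 14d and 8 differed among the lines. Median centring left 2 lower in 10d than in 9v and 5 higher, so that 71.4% of the calls were higher in place of 55.6%. Leaving out any line gave 0 members called in limma under either grouping, as did every other setting; over all genes, median centring gave 12 calls by the labels and no other setting gave any. Of 319 recomputed member differences, 298 shifted by no more than 1.5-fold, 21 shifted further and 0 called ones reversed; a further 9 gave no value. Values near 32 limit what Slc43a2, Slc43a3 and Slc7a8 can show.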
